A study of Mus musculus with 40 samples.

Results

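The peroxiredoxins and glutathione peroxidases described here are 10 mouse genes, namely *Prdx1*, *Prdx2*, *Prdx3*, *Prdx4*, *Prdx5*, *Prdx6*, *Gpx1*, *Gpx3*, *Gpx4* and *Gpx8*. They were found by matching the Ensembl identifiers of the deposited count table to these symbols, which gave 1 identifier for each, 10 of the 55487 genes in the table. Both families reduce hydrogen peroxide and organic hydroperoxides. Peroxiredoxins do so with a reactive cysteine that most of them restore with thioredoxin, while the classical glutathione peroxidases carry a selenocysteine that is restored with glutathione. The enzymes differ in where they work, and astrocytes are known for a large glutathione pool and for supplying neurons with its precursors. The members were therefore ordered by the place of the enzyme, from general knowledge: *Prdx1*, *Prdx2*, *Prdx6* and *Gpx1* mainly in the cytosol, *Prdx5* and *Gpx4* in several compartments, *Prdx3* in mitochondria, *Prdx4* and *Gpx8* in the endoplasmic reticulum (ER), and *Gpx3* secreted.

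The study asked how inflammatory factors act on astrocytes of the brainstem and rostral spinal cord and on the motor neurons grown on them. All 40 libraries came from a mouse embryonic stem cell line with a transgene in which the promoter of Hb9, a motor neuron gene, drives green fluorescent protein. Stem cells were differentiated with retinoic acid and a smoothened agonist into ES-motor neurons, and glial progenitors of the same cultures into ES-astrocytes with forskolin. ES-astrocytes were left as controls or stimulated for 24 h with IL-1α and TNF-α, with complement C1Q and C5, with IL-1β and IL-6, or with TGF-β2, and sorted ES-motor neurons were plated on top.

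After co-culture the cells were sorted again into samples of about 200 cells, which gave 10 groups (2 cell types by 5 treatments) of 4 biological replicates, lettered A to D. The ES-motor neurons of a stimulated group had therefore been grown on stimulated ES-astrocytes, in medium that was not removed beforehand. The cells are a culture model from a single transgenic line. The media held supplements with antioxidants and serum. The reducing agent β-mercaptoethanol is listed for the stem cell, differentiation and motor neuron media, but not for the astrocyte medium. Both cell types shared wells in co-culture before they were sorted. Polyadenylated RNA was measured in bulk, so that fewer cells of a type and less RNA per cell cannot be told apart for any value below.

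Total counts were 1510823 to 16054290 in the 20 ES-astrocyte libraries (median 4670241.5) and 6557 to 19717324 in the 20 ES-motor neuron libraries (median 1213482). In 9 libraries, all of ES-motor neurons, the total was under 20% of the median of all 40, which was 2459460.5. These include all 4 libraries of ES-motor neurons from the IL-1α and TNF-α co-cultures. A count of 0 is a limit and not an absence: 3 counts correspond to 0.187 to 1.99 CPM (counts scaled to library size) in single ES-astrocyte libraries, but to 458 CPM in the shallowest ES-motor neuron library. The authors' sample sheet gives plate 1 for the control and the IL-1α and TNF-α libraries, and plate 2 for the other 3 stimuli. The column header does not say which step the plate belonged to. For those 3 stimuli plate and stimulus cannot be told apart.

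Marker genes were checked before the enzymes. Of 7 motor neuron markers, 6 were called higher in ES-motor neurons, and their summed level was 633 to 4653 CPM there against 15.1 to 101 CPM in ES-astrocytes, with *Mnx1*, the gene of Hb9, as the most abundant in ES-motor neurons. Of 12 astrocyte markers, 8 were tested, 6 were called lower in ES-motor neurons and 1, *Sox9*, was called higher. Their sum was 697 to 3152 CPM in ES-astrocytes against 94.2 to 764 CPM in ES-motor neurons, and the most abundant was *Fabp7*, which radial glia also express. Of markers of more mature astrocytes, *Slc1a2* and *Cd44* had counts in 20 of 20 ES-astrocyte libraries (means of 127.9 and 121.4 CPM, against 18.1 and 2.15 CPM in ES-motor neurons), while *Aldh1l1*, *Gfap* and *Aqp4* had 0 counts in all 20. The name ES-astrocytes follows the label. Cycling markers were called lower in ES-motor neurons in 6 of 6 cases (533.8 to 1234 CPM in sum against 0 to 18.2 CPM, *Top2a* the most abundant). Of 6 fibroblast markers, 3 were tested and all 3 were called lower in ES-motor neurons, with sums of 36.9 to 1118 CPM in ES-astrocytes (*Dcn* the most abundant) and at most 5.89 CPM in ES-motor neurons. Neuronal markers were called higher in ES-motor neurons in 4 of 8 cases and were also present in ES-astrocytes (1717 to 3741 CPM in sum, *Stmn2* the most abundant). Sums of microglial markers reached at most 21.8 CPM, of oligodendrocyte markers 45.5 CPM and of pluripotency markers 1.34 CPM in any library. Whether any of these cells or states had a part in the differences below was not tested.

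One library stood apart from its group. ES-astrocyte control replicate A had the lowest astrocyte marker sum of all ES-astrocyte libraries (697 CPM, against 2417.5 to 3152.5 CPM in control replicates B to D) and the lowest share of mitochondrial transcripts (1.12%). Its motor neuron marker sum was the highest of all ES-astrocyte libraries (101 CPM, against 24.0 to 77.6 CPM in control replicates B to D). This library also had the highest level of 7 of the 10 members among the 20 ES-astrocyte libraries (*Prdx1*, *Prdx2*, *Prdx6*, *Prdx5*, *Gpx4*, *Prdx4* and *Gpx3*). Log2 fold changes that involve the control ES-astrocytes are therefore also given without it, while levels, their order and their shares are given with it.

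A gene was called between the cell types when edgeR's quasi-likelihood test, adjusted by Benjamini-Hochberg, gave 0.05 or less and the log2 fold change was above 1 or below −1. Every adjusted p below comes from that test and adjustment unless another tool is named. Over the 5 treatments, 3 of the 10 members were called, *Prdx1*, *Prdx4* and *Gpx8*, all lower in ES-motor neurons, where 14.9% of the 13227 genes tested were called in either direction, 511 higher and 1461 lower. That balance was not the same in every fit: DESeq2 called 573 genes higher and 1266 lower, but limma-voom with library quality weights 2220 higher and 888 lower, where tool and weights cannot be told apart. Both called the same 3 members, again lower in ES-motor neurons. In the 8 control libraries alone, 2 of the 10 were called, *Prdx1* and *Gpx8*, where 2.24% of 10199 genes were called and 1.67% were called lower. The median log2 fold change of the members over 5 treatments was −0.36, beside −0.21 for all genes tested. By place, 1 of 4 cytosolic members, 0 of 2 in several compartments, 0 of 1 mitochondrial, 2 of 2 ER members and 0 of 1 secreted member were called. *Gpx8*, 1 of the 2 ER members, passed the filter on low counts through ES-astrocytes alone and could be called lower only, so the tally by place is a description and, for the ER, rests on *Prdx4*. The 7 uncalled members also had no unadjusted p under 0.05 with edgeR, DESeq2 or limma-voom over 5 treatments.

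**Figure D1:**
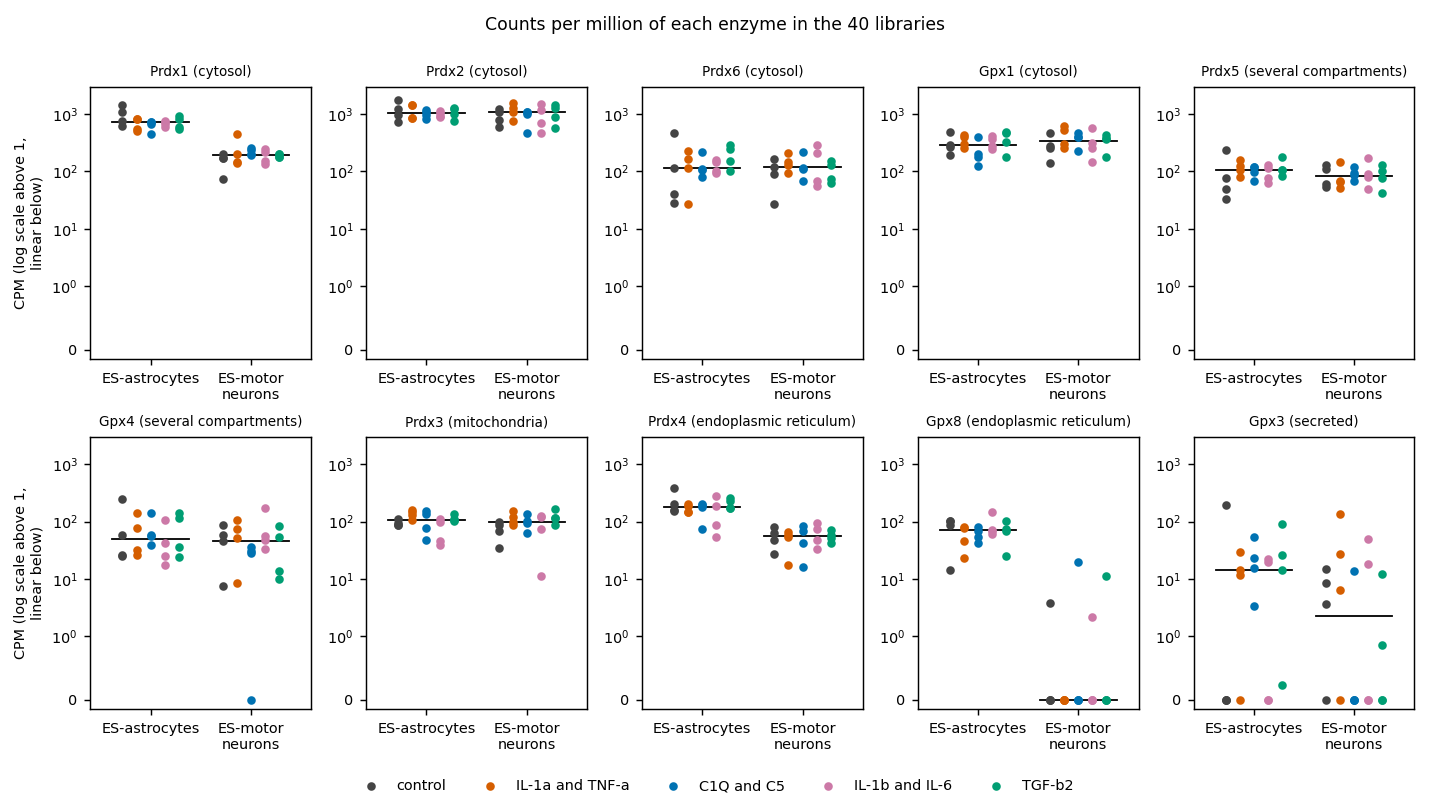
CPM of each enzyme in the 40 libraries, on a log scale above 1 CPM and a linear scale below, by cell type and coloured by treatment; each point is a library and each line the median of 20 libraries. *Prdx1* lay at 454 CPM or higher in every ES-astrocyte library and at 450 CPM or lower in every ES-motor neuron library, and *Gpx8* had 0 counts in 16 of 20 ES-motor neuron libraries.

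Among the cytosolic enzymes, *Prdx1* (ENSMUSG00000028691, chr4:116685544-116700822, GRCm38, plus strand) encodes a peroxiredoxin that clears peroxide and also acts as a chaperone. Its level in the 20 ES-astrocyte libraries was 454 to 1455 CPM (median 731), and in the 20 ES-motor neuron libraries 72.6 to 449.9 CPM (median 195). The ranges do not overlap, although the highest ES-motor neuron library (IL-1α and TNF-α, replicate B) lay just under the lowest ES-astrocyte library (C1Q and C5, replicate D). Among the 11 deeper ES-motor neuron libraries the level was 169 to 253 CPM. *Prdx1* thus had a log2 fold change of −1.90 (SE 0.16, edgeR's quasi-likelihood test, Benjamini-Hochberg adjusted p = 2.94e-13), and in each of the 5 treatments all 4 ES-motor neuron libraries lay below all 4 ES-astrocyte libraries.

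In the controls, *Prdx1* was at 1455, 755, 1070 and 630 CPM in ES-astrocyte replicates A to D and at 171, 205, 72.6 and 169 CPM in the ES-motor neuron replicates. The lowest ES-astrocyte control was above the highest ES-motor neuron control. Between the controls it differed by a log2 fold change of −2.64 (SE 0.45, edgeR's quasi-likelihood test, Benjamini-Hochberg adjusted p = 0.0132). Without ES-astrocyte control replicate A it was −2.33 (edgeR adjusted p = 0.00441). The call was lost with the letter as replicate block (edgeR adjusted p = 0.0821), without ES-motor neuron control replicate A (edgeR adjusted p = 0.0605) and without replicate D (edgeR adjusted p = 0.0612).

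*Prdx2* (ENSMUSG00000005161, chr8:84969587-84974834, plus strand), a cytosolic peroxiredoxin that is abundant in neurons, had about the same range in both cell types. It was at 743 to 1771 CPM (median 1034) in ES-astrocytes and at 462 to 1533 CPM (median 1074) in ES-motor neurons. Its log2 fold change over 5 treatments was −0.11 (SE 0.15, edgeR adjusted p = 0.718), and the groups overlapped in every treatment. The gene overlaps *Rnaseh2a* by 181 bases and *Junb* by 351 bases on the other strand, and no strand setting of the counting is given, so reads there cannot be assigned for certain. *Rnaseh2a* had a median of 76.3 CPM in ES-astrocytes against 76.7 CPM in ES-motor neurons, and *Junb* at most 0.0770 CPM as a median.

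*Gpx1* (ENSMUSG00000063856, chr9:108338903-108340343, plus strand) encodes the most widespread glutathione peroxidase. It was at 122 to 480 CPM (median 294) in ES-astrocytes and 138 to 630 CPM (median 337) in ES-motor neurons (log2 fold change 0.16, SE 0.18, edgeR adjusted p = 0.648). *Prdx6* (ENSMUSG00000026701, chr1:161240112-161251219, minus strand) encodes a peroxiredoxin that also has phospholipase activity and reduces oxidized phospholipids. It was at 26.6 to 467 CPM (median 114) and 26.7 to 287 CPM (median 119), with a log2 fold change of −0.18 (SE 0.27, edgeR adjusted p = 0.747). Neither gene separated the cell types in any treatment, and *Prdx6* had the wider spread, with a coefficient of variation of 68.8% in ES-astrocytes. Without ES-astrocyte control replicate A the log2 fold change of *Prdx6* turned to 0.11 (edgeR adjusted p = 0.848).

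*Prdx5* (ENSMUSG00000024953, chr19:6906697-6910106, minus strand) encodes a peroxiredoxin found in mitochondria, peroxisomes and the cytosol. Its level was 32.4 to 238 CPM (median 105) in ES-astrocytes and 41.3 to 173 CPM (median 83.5) in ES-motor neurons. *Prdx5* had a log2 fold change of −0.22 (SE 0.21, edgeR adjusted p = 0.558), and the groups overlapped in every treatment. It overlaps *Trmt112* by 409 bases on the other strand, which had medians of 54.5 and 52.5 CPM, so a part of its reads may belong to either gene.

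*Gpx4* (ENSMUSG00000075706, chr10:80047166-80056439, plus strand) encodes the enzyme that reduces lipid hydroperoxides within membranes and so guards against ferroptosis. It was at 17.4 to 248 CPM (median 48.9) in ES-astrocytes and 0 to 171 CPM (median 46.3) in ES-motor neurons, where the 0 came from the shallowest library. The log2 fold change was −0.51 (SE 0.35, edgeR adjusted p = 0.389), and the C1Q and C5 libraries alone separated by cell type. A transcribed pseudogene, *Gpx4-ps2*, held 743 counts over 31 libraries, beside 9368 and 6053 counts of *Gpx4* in the 2 cell types, so a share of *Gpx4* reads may have been assigned to the copy.

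In mitochondria, *Prdx3* (ENSMUSG00000024997, chr19:60864051-60874556, minus strand) encodes the main peroxide-reducing enzyme of the matrix. It was at 39.2 to 157 CPM (median 106) in ES-astrocytes and 11.3 to 165 CPM (median 97.9) in ES-motor neurons. Its log2 fold change was −0.08 (SE 0.19, edgeR adjusted p = 0.841), and the groups overlapped in every treatment.

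Both ER members were lower in ES-motor neurons. *Prdx4* (ENSMUSG00000025289, chrX:155323918-155340754, minus strand) encodes the ER peroxiredoxin, which uses the peroxide made during disulfide formation to oxidize further protein thiols. It was at 54.4 to 388 CPM (median 181) in ES-astrocytes and 16.4 to 95.4 CPM (median 55.3) in ES-motor neurons. In all, 17 of 20 ES-astrocyte libraries lay above every ES-motor neuron library, and the exceptions were C1Q and C5 replicate A (74.0 CPM) and IL-1β and IL-6 replicates A (88.5 CPM) and D (54.4 CPM). *Prdx4* had a log2 fold change of −1.72 (SE 0.21, edgeR's quasi-likelihood test, Benjamini-Hochberg adjusted p = 6.07e-09), the mean was lower in all 5 treatments, and the groups were fully separate in 3 of them.

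In the controls, *Prdx4* was at 388, 158, 150.0 and 201 CPM in ES-astrocyte replicates A to D and at 62.3, 81.2, 26.7 and 48.5 CPM in the ES-motor neuron replicates, again without overlap. The log2 fold change of −2.002 (SE 0.48) missed the threshold with edgeR (adjusted p = 0.0551) and was called with DESeq2. Without ES-astrocyte control replicate A it was −1.53 (edgeR adjusted p = 0.0610).

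*Gpx8* (ENSMUSG00000021760, chr13:113042753-113046410, minus strand) encodes a glutathione peroxidase of the ER membrane that carries a cysteine in place of selenocysteine. It had counts in 20 of 20 ES-astrocyte libraries, at 14.4 to 144 CPM (median 71.0), but in 4 of 20 ES-motor neuron libraries, at 3.82 CPM (control, replicate C), 19.9 CPM (C1Q and C5, replicate B), 2.15 CPM (IL-1β and IL-6, replicate A) and 11.2 CPM (TGF-β2, replicate C). Of the 11 deeper ES-motor neuron libraries, 8 had 0 counts. Over all treatments the ranges met, since the C1Q and C5 library at 19.9 CPM was above the lowest ES-astrocyte control, but within each of the 5 treatments all ES-motor neuron libraries lay below all ES-astrocyte libraries. Its log2 fold change was −5.34 (SE 0.68, edgeR's quasi-likelihood test, Benjamini-Hochberg adjusted p = 2.16e-08). Leave-one-out gave −6.42 to −5.11.

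Summed over libraries and scaled by effective totals, 9289 *Gpx8* counts of ES-astrocytes against 76 of ES-motor neurons give a ratio of 67.7 (95% Clopper-Pearson interval 54.0 to 86.0, for counting error alone). By treatment, the level in ES-astrocytes was 12.3-fold higher with C1Q and C5 (8.30 to 19.1), 67.4-fold with IL-1β and IL-6 (48.1 to 97.6) and 65.8-fold with TGF-β2 (40.4 to 115). With IL-1α and TNF-α it was at least 23.1-fold higher, since ES-motor neurons had 0 counts there in 4 shallow libraries and the bound uses 3 counts over the group. Each ES-motor neuron group with counts had them in a single library, so these ratios rest on 1 library each. They also weight libraries by depth, and group means, which do not, were 61.0 and 4.97 CPM with C1Q and C5, 86.4 and 0.538 CPM with IL-1β and IL-6, 67.7 and 2.80 CPM with TGF-β2 and 69.5 and 1.85 CPM over all libraries, so the direction is clearer than the size. *Gpx8* lies within the span of *Cdc20b* on the other strand over all of its 3658 bases, but *Cdc20b* had 0 counts in all libraries.

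In the controls, *Gpx8* was at 102, 102, 87.0 and 14.4 CPM in ES-astrocyte replicates A to D, and a single count was found in the 4 ES-motor neuron libraries. Group means were 76.3 and 0.955 CPM. The ratio of summed counts was far higher, 1913 (interval 343 to 75595), because the deepest ES-motor neuron library, replicate B with 0 counts of *Gpx8*, makes up most of the summed total, so its size should not be read closely. The gene was called lower in ES-motor neurons (edgeR's quasi-likelihood test, Benjamini-Hochberg adjusted p = 0.0155, and 0.0112 without ES-astrocyte control replicate A). This call too was lost with the letter as replicate block (edgeR adjusted p = 0.0785), and without ES-motor neuron control replicate A (edgeR adjusted p = 0.0689), B (edgeR adjusted p = 0.0597) or D (edgeR adjusted p = 0.0770).

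*Gpx3* (ENSMUSG00000018339, chr11:54902453-54910377, plus strand) encodes the glutathione peroxidase of plasma and extracellular fluid. It was low and uneven, at 0 to 192 CPM in ES-astrocytes (median 14.3, with 6 libraries at 0 counts) and 0 to 135 CPM in ES-motor neurons (median 2.23, with 9 at 0 counts). The log2 fold change was −1.16 (SE 1.00, edgeR adjusted p = 0.510), and 0.21 without ES-astrocyte control replicate A (edgeR adjusted p = 0.940). The ranges overlapped in all 5 treatments.

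Without ES-astrocyte control replicate A the 3 members called over 5 treatments stayed called, at −1.81 for *Prdx1*, −1.61 for *Prdx4* and −5.28 for *Gpx8*. Of the uncalled members, *Gpx4* moved from −0.51 to −0.23 and *Prdx5* from −0.22 to −0.0357, so that much of their difference came from that library. *Prdx2* was then at −0.0370, *Prdx3* at −0.0389 and *Gpx1* at 0.24.

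**Figure D2:**
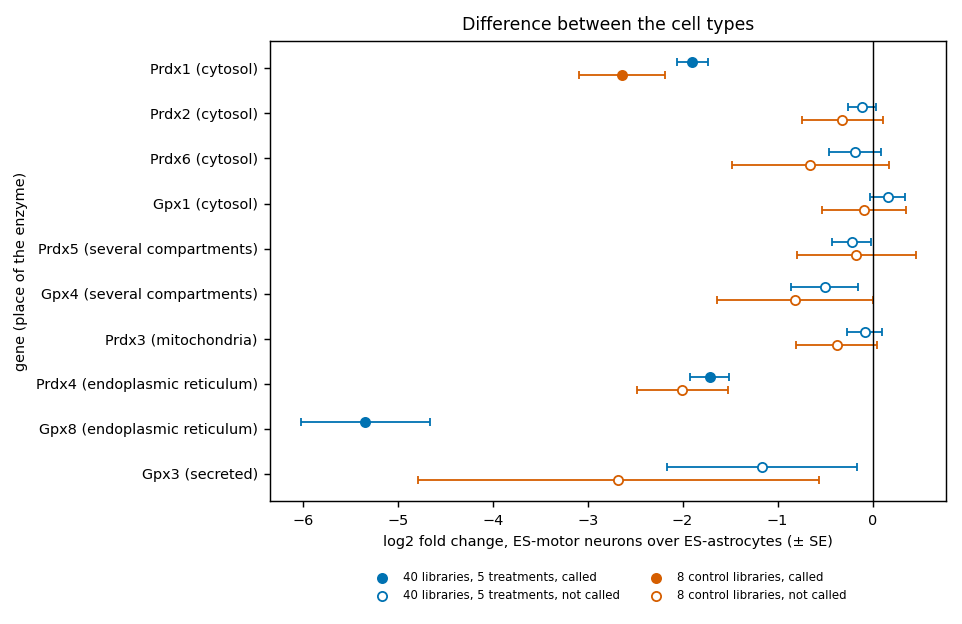
Log2 fold change of each enzyme in ES-motor neurons over ES-astrocytes (horizontal axis, bars ± SE) in the fit of 40 libraries over 5 treatments and in the fit of 8 control libraries; filled points were called. *Gpx8* in the controls is not drawn because ES-motor neurons had a single count; *Prdx1* (−1.90), *Prdx4* (−1.72) and *Gpx8* (−5.34) were called over 5 treatments.

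Levels of different genes were compared as CPM per kb of the principal transcript. In ES-astrocytes the order of the medians was *Prdx2* (641), *Prdx1* (319), *Gpx1* (274), *Prdx4* (183), *Prdx5* (83.0), *Prdx3* (71.6), *Gpx8* (68.1), *Gpx4* (51.0), *Prdx6* (47.9) and *Gpx3* (8.98). In ES-motor neurons it was *Prdx2* (666), *Gpx1* (315), *Prdx1* (85.2), *Prdx3* (66.3), *Prdx5* (66.2), *Prdx4* (55.8), *Prdx6* (49.8), *Gpx4* (48.3), *Gpx3* (1.40) and *Gpx8* (0). The ranges over libraries of all neighbours in both orders overlapped. Within libraries, *Prdx2* was above *Prdx1* in 20 of 20 ES-astrocyte libraries and *Gpx1* was above *Prdx1* in 20 of 20 ES-motor neuron libraries, whereas in ES-astrocytes *Prdx1* was above *Gpx1* in 11 of 20. The order also depends on the length used. Per kb of all exons of a gene, *Prdx3* (66.3) stood above *Prdx1* (64.2) in ES-motor neurons, *Prdx5* went from place 5 to 7 in ES-astrocytes, and the ES-astrocyte medians of *Prdx2* and *Prdx4* were 339 and 86.0. The orders of *Prdx5*, *Prdx3*, *Gpx8*, *Gpx4* and *Prdx6* in ES-astrocytes were not distinct, since each stood above the next in 9 to 12 of 20 libraries. In ES-motor neurons *Prdx3* stood above *Prdx5* in 8 of 20 libraries, *Prdx4* above *Prdx6* in 11 and *Prdx6* above *Gpx4* in 10. These orders were not distinct either. There *Gpx3* stood above *Gpx8* in 11 of 20 libraries, and the other neighbours kept the printed order in 14 to 20.

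Of the summed CPM per kb of the 10 members, the cytosolic enzymes made up a median of 72.2% in ES-astrocytes (66.2% to 82.5%) and 80.3% in ES-motor neurons (74.6% to 86.7%). The ER members made up 14.1% (7.30% to 19.4%) in ES-astrocytes and 4.47% (1.37% to 7.08%) in ES-motor neurons, so that the lowest ES-astrocyte library was just above the highest ES-motor neuron library. The shares of the mitochondrial enzyme (medians of 3.82% and 4.84%), of those in several compartments (7.71% and 8.46%) and of the secreted enzyme (0.597% and 0.119%) overlapped. By family, peroxiredoxins held a median of 75.9% in ES-astrocytes, against 71.9% in ES-motor neurons, with overlapping ranges. The shares of 1 library add up to the whole, so they do not move independently of each other, and they were computed with the principal transcript alone.

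**Figure D3:**
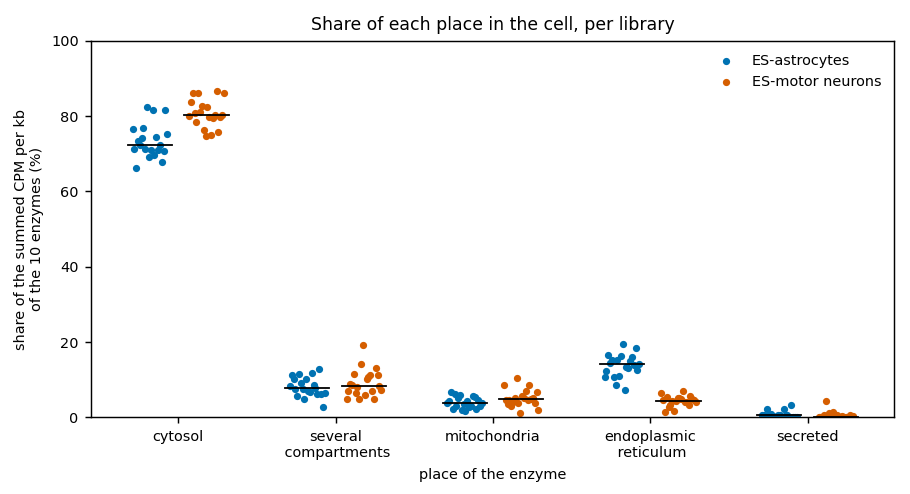
Share of each place in the cell in the summed CPM per kb of the 10 enzymes (vertical axis, percent), per library and cell type, with lines at the medians. The ER share lay between 7.30% and 19.4% in ES-astrocytes but between 1.37% and 7.08% in ES-motor neurons.

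The stimuli were then compared with the control within each cell type. In ES-astrocytes no member was called by edgeR's quasi-likelihood test: 0 of 10 with IL-1α and TNF-α, where 0% of 10444 genes were called, 0 of 10 with C1Q and C5 (0% of 10865), 0 of 9 tested with IL-1β and IL-6 (0% of 10240) and 0 of 10 with TGF-β2 (0% of 10794). No member had an unadjusted p under 0.05 with edgeR in these 4 comparisons, and neither DESeq2 nor limma-voom called a member. With unadjusted p under 0.05, DESeq2 had 1 member (*Prdx3*, IL-1α and TNF-α), and limma-voom had 2 with IL-1α and TNF-α (*Prdx5* and *Gpx3*), 1 with C1Q and C5 (*Gpx3*), 0 with IL-1β and IL-6 and 2 with TGF-β2 (*Prdx6* and *Gpx3*). Of all genes, 93, 106, 119 and 136 had an unadjusted p under 0.05 with edgeR, and DESeq2 called 21, 37, 56 and 58 and limma-voom 0 in each. The 4 comparisons share the control libraries.

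The member with the smallest p in the IL-1α and TNF-α comparison was *Prdx3*. It was at 157, 107, 149 and 131 CPM in the stimulated ES-astrocyte replicates A to D and at 110, 94.9, 85.6 and 87.8 CPM in the controls. The lowest stimulated library, replicate B, lay below control replicate A. For *Prdx3* this is a log2 fold change of 0.56 (SE 0.31, edgeR adjusted p = 1.000), and of 0.65 without ES-astrocyte control replicate A (edgeR adjusted p = 1.000).

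*Prdx1* was the member with the smallest p in the other 3 comparisons. It was at 672, 738, 724 and 454 CPM with C1Q and C5, at 601, 742, 760 and 662 CPM with IL-1β and IL-6, and at 836, 932, 556 and 591 CPM with TGF-β2. All of these overlapped the control range of 630 to 1455 CPM. The log2 fold changes were −0.56 (SE 0.39), −0.49 (SE 0.36) and −0.37 (SE 0.36), and all 3 shrank towards 0 without ES-astrocyte control replicate A, to −0.30, −0.22 and −0.13. *Prdx4* had log2 fold changes of −0.36 with IL-1α and TNF-α, −0.44 with C1Q and C5, −0.55 with IL-1β and IL-6 and −0.04 with TGF-β2. In the same order, they were 0.06, −0.03, −0.13 and 0.34 without ES-astrocyte control replicate A. With IL-1β and IL-6, *Prdx3* was at −0.35, and at −0.26 without that replicate.

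That replicate also set the values of the less even members. Control *Gpx4* was at 248, 24.7, 25.9 and 58.3 CPM, control *Prdx6* at 467, 27.7, 113 and 40.0 CPM and control *Prdx5* at 238, 76.5, 32.4 and 48.9 CPM in replicates A to D. The first library was the highest for each of them, and without it the log2 fold changes moved upward: with TGF-β2, *Prdx6* went from 0.35 (SE 0.79) to 1.75 (edgeR adjusted p = 0.640) and *Prdx5* from 0.32 (SE 0.60) to 1.21 (edgeR adjusted p = 0.657), while *Gpx4* went from −0.10 (SE 0.83) to 1.16. *Prdx5* with IL-1α and TNF-α went from 0.29 (SE 0.60) to 1.22 (edgeR adjusted p = 1.000). These 3 differences of *Prdx6* and *Prdx5* had an unadjusted p under 0.05 with edgeR, and none was called.

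*Gpx3* had counts in 1 of 4 control ES-astrocyte libraries (replicate A, 192 CPM, the others at 0 counts), in 3 of 4 with IL-1α and TNF-α (up to 29.7 CPM), in 4 of 4 with C1Q and C5 (3.41 to 54.5 CPM), in 2 of 4 with IL-1β and IL-6 (up to 22.6 CPM) and in 4 of 4 with TGF-β2 (0.233 to 89.7 CPM). The single control library with counts was higher than every stimulated one, so any order of control and stimulus turns on it. Without it edgeR gave *Gpx3* an unadjusted p under 0.05 with IL-1α and TNF-α, with C1Q and C5 and with TGF-β2 (adjusted p = 1.000, 0.744 and 0.631), against 0 control counts, and it was not called. In the IL-1β and IL-6 comparison the gene had too few counts for the fit, and an exact two-sided permutation test of its CPM gave p = 1.000.

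In ES-motor neurons no member was called either by edgeR's quasi-likelihood test: 0 of 8 tested from the IL-1α and TNF-α co-cultures (0% of 4479 genes called), 0 of 8 with C1Q and C5 (0% of 7348), 0 of 9 with IL-1β and IL-6 (0% of 8327) and 0 of 8 with TGF-β2 (0.0126% of 7947, a single gene). No member had an unadjusted p under 0.05 with edgeR or limma-voom, DESeq2 had 1 (*Gpx3*, IL-1α and TNF-α), and neither DESeq2 nor limma-voom called a member. Of all genes, 143, 322, 98 and 221 had an unadjusted p under 0.05 with edgeR, and DESeq2 called 1, 0, 1 and 19 and limma-voom 0 in each. Totals of 112775 to 445874 counts in the 4 IL-1α and TNF-α libraries limit what could be detected there.

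The smallest p was again that of *Prdx3*, with IL-1α and TNF-α. It was at 88.4, 118, 98.1 and 155 CPM in replicates A to D, against 85.8, 97.8, 68.8 and 34.7 CPM in the control ES-motor neurons. The stimulated libraries overlapped the upper controls. The log2 fold change was 0.85 (SE 0.45, edgeR adjusted p = 0.990). With TGF-β2, *Prdx3* was at 86.7, 115, 165 and 115 CPM, with a log2 fold change of 0.74 (SE 0.40, edgeR adjusted p = 0.999).

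*Prdx1*, the called cytosolic member, was at 200.3, 450, 145 and 138 CPM in ES-motor neurons with IL-1α and TNF-α, at 202, 234, 253 and 193 CPM with C1Q and C5, at 246, 135, 219 and 154 CPM with IL-1β and IL-6, and at 182, 175, 205 and 197 CPM with TGF-β2. One library stood out, replicate B with IL-1α and TNF-α, and the others were at 135 to 253 CPM, beside a control range of 72.6 to 205 CPM. Log2 fold changes were 0.76 (SE 0.44), 0.52 (SE 0.39), 0.31 (SE 0.40) and 0.28 (SE 0.34). In the same order, leave-one-out gave 0.30 to 0.93, 0.32 to 0.67, 0.11 to 0.48 and 0.0872 to 0.43. For *Prdx4*, the ER peroxiredoxin, the log2 fold changes were 0.02 (SE 0.52), −0.19 (SE 0.54), 0.26 (SE 0.50) and −0.01 (SE 0.45).

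*Gpx8* fell below the filter in all 4 comparisons of ES-motor neurons and *Gpx3* in 3 of them. For *Gpx8*, with counts in 1 control library and in at most 1 stimulated library, exact two-sided permutation tests of the CPM gave p = 1.000 with each stimulus, but so few libraries with counts allow no small p. DESeq2 had no unadjusted p under 0.05 for it, the fit of all 40 libraries had one with C1Q and C5 and with TGF-β2 (edgeR adjusted p = 1.000 for both), and none of these called it. For *Gpx3*, exact permutation in the same way gave p = 0.343 (IL-1α and TNF-α), p = 0.543 (C1Q and C5) and p = 0.457 (TGF-β2). The *Gpx3* means were 42.2 ± 63.2 CPM (SD, n = 4) with IL-1α and TNF-α and 6.82 ± 6.54 CPM (SD, n = 4) in the controls, and the first rests on replicate A at 135 CPM.

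**Figure D4:**
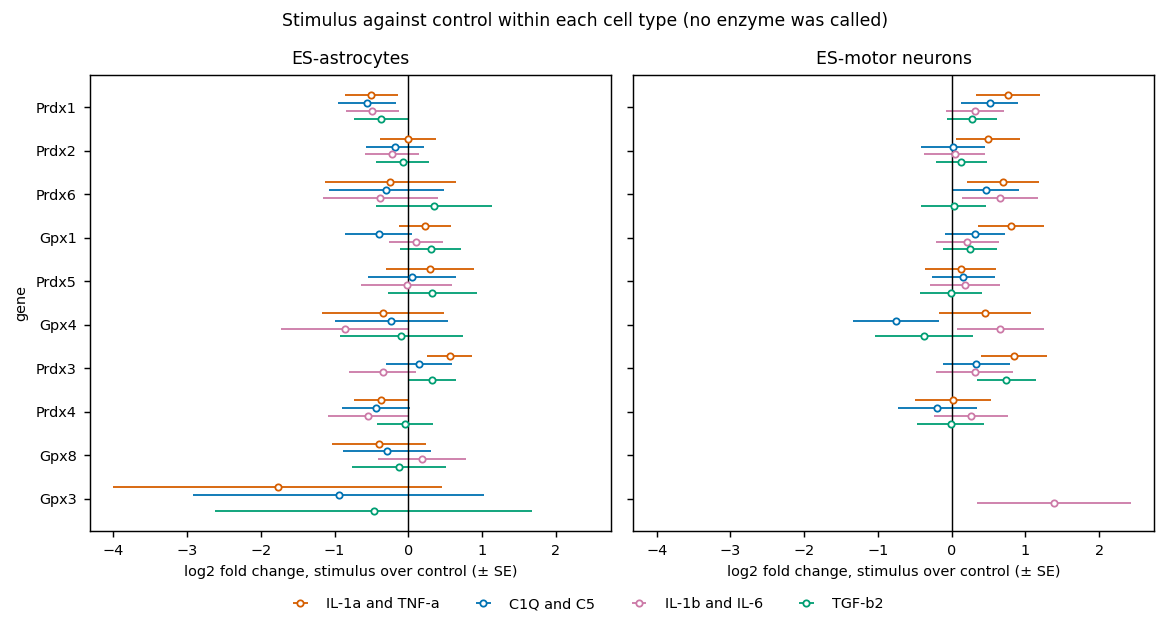
Log2 fold change of each enzyme with each stimulus over the control (horizontal axis, bars ± SE), in ES-astrocytes and ES-motor neurons; genes below the filter on low counts have no point. No point was called; the smallest p values were those of *Prdx3* with IL-1α and TNF-α, at 0.56 for ES-astrocytes and 0.85 for ES-motor neurons.

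Tests of any difference among the 5 treatments called 0 of 10 members in ES-astrocytes (edgeR's quasi-likelihood test, 0% of 13195 genes called, 345 with unadjusted p under 0.05) and 0 of 9 in ES-motor neurons (0.0105% of 9479 called, 264 with unadjusted p under 0.05). No member had an unadjusted p under 0.05 with edgeR or DESeq2 in either, and limma-voom had 1, *Gpx3* in ES-astrocytes. DESeq2 called 11 and 3 genes and limma-voom 0 and 1, none of them members. Whether the difference between the cell types varied with treatment was tested directly: edgeR called 0 of 10 members and 0% of 13227 genes, with 808 genes at an unadjusted p under 0.05, DESeq2 called 1 gene and limma-voom 0, again no member. Of the members, *Gpx8* had an unadjusted p under 0.05 with edgeR (adjusted p = 0.807), *Prdx1* with DESeq2 and *Gpx3* with limma-voom, so that no member passed 0.05 with more than 1 tool.

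The other genes of both families were near absent. *Gpx2* and *Gpx5* had 0 counts, *Gpx6* and *Prdx6b* 2 each and *Gpx7*, the other ER glutathione peroxidase, 57 counts in 4 libraries, and none of these 5 passed the filter.

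Genes of connected pathways were taken from written lists and compared between the cell types over 5 treatments, where 14.9% of all genes tested were called, 1461 of 13227 of them lower. Of the thioredoxin system, which restores most peroxiredoxins, 0 of 10 genes were called (median log2 fold change −0.44, beside −0.21 for all genes tested; smallest p for *Txn2*, *Txnrd1* and *Txn1*). Of glutathione synthesis and recycling, 0 of 9 tested were called (median −0.20; smallest p for *Glrx5*, *Glrx* and *Gclm*). Of the superoxide dismutases and catalase, 1 of 4 was called lower (median −0.63), *Sod3*, the extracellular enzyme, with counts in 6 ES-astrocyte and 0 ES-motor neuron libraries. With counts in ES-astrocytes alone it could be called in this direction only, so the call is no result about the list. *Sod1* and *Sod2* had the next smallest p.

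Of 12 genes of oxidative folding in the ER, the pathway in which *Prdx4* works, 1 was called lower in ES-motor neurons and 0 higher, with a median of −0.45. In all, 1461 of 13227 genes were called lower. By adjusted p whatever the fold, which 18.7% of all genes passed, 1751 of them lower, 6 of the 12 passed, all lower. The called gene was *Hsp90b1*, an ER chaperone, at 236 to 618 CPM (median 334) in ES-astrocytes and 0 to 317 CPM (median 178) in ES-motor neurons. Its log2 fold change was −1.07, and the chaperone *Hspa5* and the disulfide isomerase *Pdia6*, with the next smallest p, passed by adjusted p but not by fold. The differences of *Prdx4* (−1.72) and *Gpx8* (−5.34) were larger than that of *Hsp90b1*, though this was not tested.

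Of NRF2, its inhibitor KEAP1 and targets of NRF2, a factor that drives antioxidant genes including *Prdx1*, 4 of 14 tested were called lower and 0 higher, beside 1461 of 13227 genes called lower in all, with a median of −1.02. They were *Fth1*, which stores iron, at a median of 1073 CPM in ES-astrocytes against 503 CPM in ES-motor neurons, *Nqo1* and *Gsta4*, both at a median of 0 CPM in ES-motor neurons, and *Nfe2l2*, the gene of NRF2 itself, at medians of 19.8 and 4.26 CPM. *Nqo1* and *Gsta4* passed the filter through ES-astrocytes alone and could be called in this direction only, so the count of 4 is no result about the list. Other targets, *Srxn1*, *Txnrd1* and *Gclm* among them, were not called. Of selenoprotein synthesis and selenium transport, which *Gpx1*, *Gpx3* and *Gpx4* need, 0 of 7 tested were called (median −0.30; smallest p for *Trnau1ap*, *Sephs2* and *Eefsec*). Of lipid peroxidation, which *Gpx4* limits, 1 of 7 was called lower, *Gch1*, a gene of tetrahydrobiopterin synthesis (median 0.22; *Acsl4* and *Tfrc* next), to which the same limit applies. By adjusted p whatever the fold, 0 genes of the thioredoxin system, 0 of glutathione, 2 of the superoxide dismutases and catalase, 1 of selenoprotein synthesis, 4 of NRF2 and 1 of lipid peroxidation passed, all lower. With edgeR, no gene of any of these lists was called in a comparison of a stimulus with the control. Those fits called 0% of all genes tested, or 0.0126% with TGF-β2 in ES-motor neurons, so this is no result about the lists. The lists were not looked up with DESeq2 or limma-voom.

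For each member, the 2 genes with the most similar pattern over the 20 ES-astrocyte libraries, among 13185 genes, were found by Pearson correlation of log2(CPM + 1), as a description; the points share library, depth and the composition of each sample. They were *Ppia* (r = 0.83) and *Cnbp* (0.83) for *Prdx1*, *1500011B03Rik* (0.89) and *Cops6* (0.88) for *Prdx2*, *Rab11b* (0.83) and *Ino80e* (0.82) for *Prdx6*, and *Pfn1* (0.88) and *Cops6* (0.88) for *Gpx1*. *Cops6* was thus named for 2 cytosolic members. They were *Tecr* (0.82) and *Pigyl* (0.81) for *Prdx5*, *Aldoa* (0.91) and *Gm49333* (0.91) for *Gpx4*, *Arrdc4* (0.85) and *Mthfd2* (0.75) for *Prdx3*, *H13* (0.86) and *Mdp1* (0.83) for *Prdx4*, *Tpd52l2* (0.81) and *Afg3l2* (0.76) for *Gpx8* and *Fam53c* (0.87) and *Bcl2l1* (0.85) for *Gpx3*. By Spearman correlation, 5 of these 20 genes were again among the 2 most similar, those for *Gpx1* both. *Mdp1* fell to place 902 for *Prdx4* (0.55) and *Afg3l2* to place 830 for *Gpx8* (0.35). The 20 libraries include ES-astrocyte control replicate A.

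The glutathione peroxidases differ in the codon of their active site, which decides whether an enzyme needs the selenium pathway above. The stretches below are coding sequence from GENCODE M21 transcripts (GRCm38), 5′ to 3′, with the codon in capitals, annotated as selenocysteine for *Gpx1*, *Gpx3* and *Gpx4* and found for *Gpx8* by aligning it to each of these 3, which gave the same codon. *Gpx1* has it as codon 47, in exon 1 of 2 (chr9:108339438-108339466, plus strand), *Gpx3* as codon 73, in exon 2 of 5 (chr11:54907243-54907271, plus strand), *Gpx4* as codon 73, in exon 3 of 7 (chr10:80054724-80054752, plus strand), and *Gpx8* as codon 79, in exon 2 of 3 (chr13:113045648-113045676, minus strand).
Gpx1: tgtcgcgtctctcTGAggcaccacgatcc
Gpx3: cgtagccagctacTGAggtctgacagacc
Gpx4: cgtggcctcgcaaTGAggcaaaactgacg
Gpx8: cgtggctagtgacTGCcgcttcacagaca
In *Gpx8* the codon is TGC, for cysteine. *Gpx8*, which could be called lower only, was called between the cell types and the 3 selenoprotein members were not. A difference between *Gpx8* and those members was not tested, nor was any link to the codon.

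Promoters of 9 members, all but *Prdx6*, were found in RefSeq sequences of GRCm38.p6, from 250 bases before to 50 bases after the start, and searched on both strands because 3 members were lower together. The motifs were the core of the antioxidant response element, bound by NRF2 (TGAC, any 3 bases, GC), the E-box CACGTG, and the ER stress response element (CCAAT, 9 bases, CCACG). The first was found in 1 member, *Prdx1*, and in 12.4% of all 32851 promoters, the E-box in 1 member, *Prdx4*, and in 7.15% of all, and the ER stress response element in 0 members and 0.119% of all. The 9 members had 12 promoters. Members were counted per gene and the shares per promoter, so they are not in the same unit. The match in *Prdx1* is on the other strand and includes TGAGTCA, a form of the AP-1 motif, 125 bases before the start (chr4:116685456-116685484, plus strand), where GENCODE M21 has no gene. The match in *Prdx4* is 47 bases before the RefSeq start (chrX:155338495-155338524, minus strand), in an intron of the longer *Prdx4* gene of GENCODE M21. Both are shown 5′ to 3′ with the match in capitals.
Prdx1: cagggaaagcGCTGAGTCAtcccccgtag
Prdx4: ggagcttgcgccCACGTGgcggaggggcgg
A match describes these letters and not the binding of a factor. No promoter match was found for *Gpx8*, the member with the largest difference.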

How the data were processed

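The authors copied polyadenylated RNA into cDNA by template switching, cut it with Tn5, mapped paired-end reads with STAR and deposited raw counts per Ensembl gene. Sources used here do not state the STAR version, counting tool, strand setting, build or annotation. Columns were assigned to samples through the sample descriptions and titles, and plates were read from the authors' sample sheet.

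Symbols, coordinates and transcript lengths were taken from GENCODE M21 (GRCm38), and promoters from RefSeq (GRCm38.p6). Genes were filtered with filterByExpr, scaled by TMM and tested with the quasi-likelihood F test of edgeR 4.0.16 in R 4.3.3, with the libraries of each comparison in its fit. DESeq2 1.42.0 and limma 3.58.1 (voom with library quality weights) served as other tools. The remaining tables and plots were made in Python 3.11.15 (numpy 2.4.6, pandas 2.3.3, matplotlib 3.10.9, scipy 1.17.1). Each SE is the absolute log2 fold change divided by the square root of F. Genes too low for a fit were compared by exact permutation of CPM.

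The members and the lists were chosen with earlier results of these data known. The lists, written from general knowledge, cover cell type markers, other family genes, the thioredoxin system, glutathione, superoxide dismutases and catalase, selenoprotein synthesis, oxidative folding in the ER, NRF2 and lipid peroxidation.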

Additional observations from a re-analysis of the deposited data

Results flagged for a closer look

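Of 99 groups of 4 libraries tested, 13 had a library that Dixon's test set apart from the other 3. Chance alone flags about 1 in 20 groups, but in 6 of the 13 the other 3 libraries had 0 counts, so the flag follows from a single library with counts and the 13 cannot be set against chance. In ES-astrocytes these were control replicate A for *Gpx4* (248 CPM) and *Gpx3* (192 CPM), C1Q and C5 replicate A for *Prdx4* (74.0 CPM, low), and IL-1β and IL-6 replicate C for *Gpx8* (144 CPM). In ES-motor neurons with counts of *Gpx8* in a single library, that library was set apart: control replicate C (3.82 CPM), C1Q and C5 replicate B (19.9 CPM), IL-1β and IL-6 replicate A (2.15 CPM) and TGF-β2 replicate C (11.2 CPM). The others in ES-motor neurons were C1Q and C5 replicate A for *Prdx2* (471 CPM, low, the shallowest library), IL-1α and TNF-α replicate A for *Prdx5* (147 CPM), IL-1β and IL-6 replicate A for *Gpx4* (171 CPM), and, for *Gpx3*, C1Q and C5 replicate D (13.7 CPM) and TGF-β2 replicate B (11.97 CPM).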

How the results depend on the processing

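Between the cell types over 5 treatments, *Prdx1*, *Prdx4* and *Gpx8* stayed the 3 members called in all 14 alternatives and all 40 fits without a library, with the letter as replicate block and with treatment and letter as a block included; the alternatives of plate 1 alone and plate 2 alone were chosen after seeing the data. In the controls, 2 members became 0 with the letter as replicate block, 0 without ES-motor neuron control replicate A or D and 1 without replicate B, and the other 11 of 12 alternatives gave 2 or 3; the cause was not tested. No member was called with a stimulus, over the treatments or for the interaction in any setting that was fitted. IL-1α and TNF-α in ES-motor neurons and the interaction were not run without libraries under 20% of the median total, since no library of that group remained. Uncalled members changed sign in some settings and moved in size alone in others. Over 5 treatments without libraries under 20% of the median total, log2 fold changes were 0.17 for *Prdx2*, 0.0941 for *Prdx6*, 0.0611 for *Prdx5* and 0.13 for *Prdx3*, and with plate 2 alone 0.0862 for *Prdx3*. Leave-one-out over 5 treatments gave −0.28 to 0.11 for *Prdx6* and −1.55 to 0.21 for *Gpx3*. It stayed below 0 for *Gpx4* (−0.69 to −0.23) and *Prdx5* (−0.31 to −0.0357). In the controls the letter as replicate block gave 0.0260 for *Prdx6*, 0.19 for *Prdx5* and 5.27 for *Gpx3*, limma-voom gave 0.74 for *Prdx6*, 0.0655 for *Gpx1*, 0.73 for *Prdx5*, 0.38 for *Gpx4* and 5.04 for *Gpx3*, and leaving out the shallow library gave 0.26 for *Gpx1* and 0.13 for *Prdx5*. Leave-one-out in the controls gave −0.99 to 0.85 for *Prdx6*, −0.43 to 0.27 for *Gpx1*, −0.47 to 0.81 for *Prdx5* and −1.22 to 0.55 for *Gpx4*. Of all genes, 1972 were called over 5 treatments, but 1282 with the minimum count of 50, 3108 with limma-voom (2220 higher and 888 lower, against 511 and 1461), 742 with plate 1 alone and 1249 with plate 2 alone. In the controls 228 were called, but 433 with 1 fit of all 40 libraries, 763 with DESeq2, 345 at an adjusted p of at most 0.1, 41 with the letter as replicate block, 451 with limma-voom, 81 without the shallow library and 72 to 401 by leave-one-out. In ES-astrocytes 0 were called with each stimulus, but 21 (IL-1α and TNF-α), 37 (C1Q and C5), 56 (IL-1β and IL-6), 58 (TGF-β2) and 11 (any difference) with DESeq2, 1 without a filter (IL-1α and TNF-α) and 2 with 1 fit of all 40 libraries (C1Q and C5, and IL-1β and IL-6). In ES-motor neurons 0 became 1 with DESeq2 and 1 without a filter (IL-1α and TNF-α, and IL-1β and IL-6), and 3 without a filter and 0 to 2 by leave-one-out (C1Q and C5). With TGF-β2, 1 gene became 19 with DESeq2, 4 at an adjusted p of at most 0.1, 3 with the minimum count of 50, 4 with the letter as replicate block, 2 with library totals alone, 0 with limma-voom, 11 without a filter, 0 without libraries under 20% of the median total and 0 to 2 by leave-one-out. For any difference in ES-motor neurons, 1 became 3 with DESeq2, 3 at an adjusted p of at most 0.1, 3 with the letter as replicate block, 77 without a filter, 0 without libraries under 20% of the median total and 0 to 4 by leave-one-out. For the interaction 0 became 1 with DESeq2 and 0 to 1 by leave-one-out. Mean CPM without TMM stayed within 1 SD in 20 of 20 cases. Spearman correlation kept 5 of 20 genes of like pattern.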
